A study of Homo sapiens with 4 samples.

Results

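Replication-dependent histone genes encode the bulk histones that package newly made DNA, and their RNA was compared here between cells sorted for high and for low surface ICAM1. The genes were taken by symbol from the table of raw read counts. They were every protein-coding gene of the H1-1 to H1-5, H2AC, H2BC, H3C and H4C series. Older nomenclature called these genes HIST1, HIST2 and HIST3, except H4C16 (HIST4H4) and H2BC12L (H2BFS). The rule found 69 genes among 58735 gene identifiers, namely 5 for H1, 17 for H2A, 19 for H2B, 13 for H3 and 15 for H4. Most of them, 54, lie on chromosome 6, with 13 on chromosome 1 and 1 each on chromosomes 12 and 21. The rule used gene names and the protein-coding type in the annotation and no measured value.

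All libraries came from A549, a human lung adenocarcinoma cell line labelled as wild-type and kept in DMEM with fetal bovine serum and antibiotics. The cells were stained for ICAM1, a surface protein through which leukocytes adhere, and separated by fluorescence-activated sorting into an ICAM1-high and an ICAM1-low subset, with 2 libraries of each. The labels name no agent other than the antibody. The labels name no cultures or sorting days, so the spread between the 2 libraries of a subset may be technical. Library totals were 17638647 and 17271825 counts (ICAM1-high) and 16665362 and 16272591 counts (ICAM1-low). ICAM1 itself had 2153 and 2028 counts against 72 and 75, which is the order the labels give. CDKN2A and MTAP, a pair of chromosome 9 genes that A549 is known to lack, went against the cell line label in both ICAM1-high libraries. CDKN2A had 1009 and 1214 counts there and 0 and 0 in ICAM1-low, and MTAP had 459 and 463 against 1 and 8. Every difference below rests on those 2 ICAM1-high libraries, and the part that this departure from the label has in the histone values was not tested.

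Nucleosomes are built from the core histones H2A, H2B, H3 and H4, while H1 binds the linker DNA between them. The replication-dependent genes are present in many copies, have as a rule no introns, and are transcribed mainly in S phase, when DNA is copied. Their messenger RNAs end as a rule in a conserved stem-loop in place of a poly(A) tail, and that stem-loop is bound by the protein SLBP. Replacement histones, in contrast, come as a rule, though not always, from genes outside these clusters with polyadenylated messages that are made throughout the cell cycle.

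The stem-loop is shown because it decides how these messages end, and a library method that selects poly(A) tails sees only those members that also make a tailed form. The labels name an mRNA library kit, and the selection step is not given in the sources used here. In GENCODE 29 transcripts, 30 of the 37 members whose models include untranslated bases held a stem-loop with a 6-base stem and a 4-base loop. The run shared by 17 members (6 H2A, 8 H2B and 3 H3 genes) is shown for H2BC21 and H2AC6, and the other lines show each variant found. Capitals mark the stem-loop, with 5 flanking bases on each side, 5′ to 3′ on the sense strand with T for U.
H2BC21: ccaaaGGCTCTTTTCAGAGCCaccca
H2AC6: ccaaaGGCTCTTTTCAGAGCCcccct
H2BC4: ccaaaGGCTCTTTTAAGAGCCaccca
H3C6: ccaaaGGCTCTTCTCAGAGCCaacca
H4C8: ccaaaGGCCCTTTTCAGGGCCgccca
H4C9: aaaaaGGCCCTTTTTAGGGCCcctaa
The loop of H2BC4 was shared with H2BC5, H2BC7 and H3C8. The form in H3C6 was found in that gene alone among the members with a model that reaches the stem-loop. H4 genes carried a different stem, in 5 members as in H4C8 and in 3 as in H4C9.

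H2A and H2B genes often stand back to back and share the DNA between their starts. Among the 69 members, 12 such divergent pairs lay within 1000 bases of each other, and 11 of them joined an H2A with an H2B gene. The shared regions of 4 pairs whose RNA is compared below are shown from RefSeq (GRCh38.p14, plus strand). In each the gene named first lies on the minus strand and the other on the plus strand, and capitals mark matches, on either strand, to CCAAT, to TATAAA, the core of the TATA box, and to ATTTGCAT, the octamer element known from H2B promoters.
H2BC4 and H2AC6, chr6:26123927-26124171: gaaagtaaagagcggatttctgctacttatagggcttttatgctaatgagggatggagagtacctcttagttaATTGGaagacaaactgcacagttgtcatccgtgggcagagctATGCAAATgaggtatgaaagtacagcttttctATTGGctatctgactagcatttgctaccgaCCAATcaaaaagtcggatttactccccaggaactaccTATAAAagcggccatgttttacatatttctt
H2BC8 and H2AC8, chr6:26216689-26216920: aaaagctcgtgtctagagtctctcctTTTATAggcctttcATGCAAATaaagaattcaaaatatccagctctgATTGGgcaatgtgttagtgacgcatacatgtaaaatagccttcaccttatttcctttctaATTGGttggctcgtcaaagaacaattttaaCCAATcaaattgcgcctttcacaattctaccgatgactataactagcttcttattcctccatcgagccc
H2BC11 and H2AC11, chr6:27132796-27133042: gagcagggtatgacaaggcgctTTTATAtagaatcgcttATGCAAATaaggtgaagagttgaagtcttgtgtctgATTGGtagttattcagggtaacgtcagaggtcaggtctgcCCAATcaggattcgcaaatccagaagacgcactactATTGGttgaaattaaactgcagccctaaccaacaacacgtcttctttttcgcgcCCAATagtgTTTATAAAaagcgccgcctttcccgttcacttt
H2AC25 and H2BC26, chr1:228457874-228458102: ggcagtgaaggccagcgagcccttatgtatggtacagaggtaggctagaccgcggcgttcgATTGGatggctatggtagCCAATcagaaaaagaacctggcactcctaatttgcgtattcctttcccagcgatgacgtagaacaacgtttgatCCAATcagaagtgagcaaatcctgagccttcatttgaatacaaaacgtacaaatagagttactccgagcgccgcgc
The first 3 regions each held 1 octamer and at least 3 CCAAT runs. The region of H2AC25 and H2BC26 held 3 CCAAT runs and neither of the other letters. In H2BC11 and H2AC11 a forward and a reverse TATAAA match overlap near the H2AC11 start.

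Over all members, 63 of 69 had a RefSeq promoter, read from 250 bases before to 50 bases after the gene's start. ATTTGCAT was found in 26 of these 63 promoters, or 41.3%, against 2.20% of 27305 promoters of all genes. Of the promoters holding it, 14 were among 18 of H2B genes and 11 among 16 of H2A genes, 1 was of an H3 gene, and none of the 5 H1 or 13 H4 promoters held it. CCAAT was found in every H1, H2A, H2B and H3 promoter read, in 3 of 13 H4 promoters and in 39.7% of all genes. TATAAA was found in 43 of 63 members, or 68.3%, and in 14% of all genes. Both strands were searched, and a match describes letters in a window and no bound factor. The windows of divergent partners overlap, so a match between them counts for both genes. The single octamer in each of the first 3 regions above is counted that way, for the H2B and for the H2A gene. The numbers of promoters are therefore larger than the numbers of separate octamers.

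Summed over all 69 genes, whether or not each could be tested, the histone level was higher in ICAM1-high. Levels are counts per 1000000 counts (CPM), scaled between libraries by edgeR's TMM method. The sum was 270.7 and 268.8 CPM against 206.9 and 203.1 CPM in ICAM1-low. Both ICAM1-high libraries lay above both ICAM1-low libraries, with means of 269.7 ± 1.35 and 205.0 ± 2.69 CPM (SD, n = 2 each) and a ratio of 1.32 ± 0.0185. With 2 libraries against 2, an exact two-sided permutation test of 1 such value cannot go below p = 0.333, so the sums carry no test. An SD of 2 libraries can fall below counting error, as several here do. It then understates the uncertainty, also of a ratio built from it. In RNA of whole sorted populations, a larger share of cells in S phase and more histone RNA per cell cannot be told apart.

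H2B accounted for most of that difference. Its 19 genes summed to 115.1 and 115.4 CPM in ICAM1-high and to 71.7 and 68.5 CPM in ICAM1-low, a ratio of 1.64 ± 0.0527. H2A summed to 77.3 and 78.4 against 70.5 and 73.4 CPM, a ratio of 1.08 ± 0.0324. For H1 the sums were 36.4 and 33.8 against 27.4 and 27.3 CPM, a ratio of 1.28 ± 0.0677. In these 3 types the subsets did not overlap, and H2B had the highest ratio of all types. H4 summed to 31.2 and 28.97 against 26.2 and 20.8 CPM, a ratio of 1.28 ± 0.217 without overlap but with a wide spread between the ICAM1-low libraries. H3 summed to 10.7 and 12.3 against 11.1 and 13.1 CPM, which overlap, with a ratio of 0.951 ± 0.143. That ratio was 1.02 without ICAM1-high replicate 1 and 1.03 without ICAM1-low replicate 2, so H3 had no stable direction. The share of H2B in the summed level was 42.8% in ICAM1-high and 34.2% in ICAM1-low, and that of H2A was 28.9% and 35.1%.

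**Figure D1:**
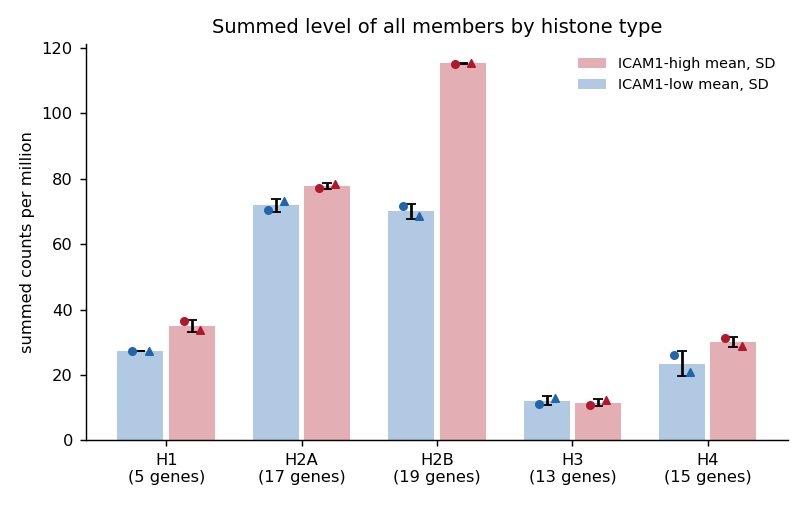
Summed level of all genes of each histone type in TMM-scaled CPM, ICAM1-low in blue and ICAM1-high in red. Bars are means of 2 libraries, error bars are the SD, and points are single libraries. The H2B bars stand at 70.1 and 115.3 CPM, while the H3 libraries of the subsets overlap.

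A few genes carried most of the signal. H2AC6 and H2BC12 together made up 42.7% of the summed level in ICAM1-high and 43.2% in ICAM1-low. Adding H1-2, H2BC5, H4C8, H2BC21, H2AC25 and H4C9 brought the share to 81.8% and 81.6%. At the other end, 12 members had 0 counts in every library. Among these, H2AC7, H3C4 and H2AC17 overlap another annotated gene on the same strand. All 50-base stretches in the models of H2AC15 and H3C14 also occur in other histone genes. How such reads were counted is not given, so 0 counts in these members may not mean absent RNA. The H2B ratio did not rest on its most abundant gene. Without H2BC12 the other 18 H2B genes summed to 57.5 ± 0.0277 and 38.5 ± 2.31 CPM, a ratio of 1.49. The first of these SDs is under counting error.

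Gene by gene, 29 of the 69 members had enough counts to be tested. The test was edgeR's quasi-likelihood test over all 16250 genes that passed its expression filter, with Benjamini-Hochberg adjustment over all of them. A call is an adjusted p under 0.05, and fold changes are the log2 of ICAM1-high over ICAM1-low. Of the 29 members tested, 13 were called higher in ICAM1-high, against 30.4% of all genes tested. Only 1 was called lower, against 29.4% of all genes, and 15 had no call, so 14 of 29 were called in either direction, against 59.7% of all genes. Both ICAM1-high libraries lay above both ICAM1-low libraries in 14 members, against 40.1% of all genes tested, and below them in 1, against 38.3%. The median fold change of the 29 was 0.33, and that of all genes tested was 0.01. The filter passes a gene that is abundant enough in 1 subset, and 7 of the 29 (H2AC8, H2AC20, H2BC8, H2BC9, H3C2, H3C8 and H3C13) passed through ICAM1-high alone, so their direction was partly fixed and these counts do not describe all 69. Without those 7, 9 of 22 members were called higher and 1 lower, with a median of 0.30, and the summed level of the remaining 62 genes had a ratio of 1.30. Scaling by library size alone moves the median fold change of all genes up by 0.17 and the share of calls that are higher from 50.8% to 68.3%. Under it 16 members were called higher and 0 lower.

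**Figure D2:**
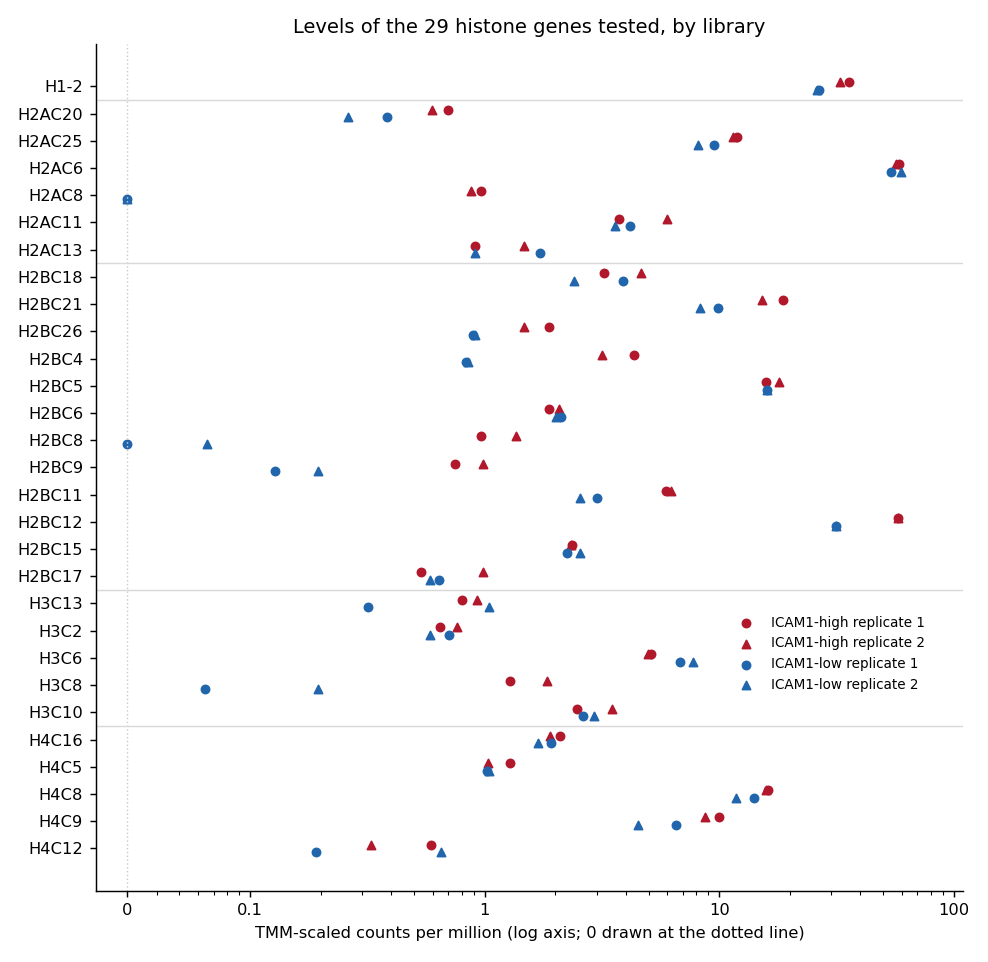
Level of each of the 29 histone genes tested in every library, in TMM-scaled CPM on a log axis with 0 at the dotted line, red for ICAM1-high and blue for ICAM1-low. Grey lines divide H1, H2A, H2B, H3 and H4. H2BC12 sits near 57.7 against 31.6 CPM, while the libraries of H2AC6 overlap at 54.2 to 59.8 CPM.

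H1 was represented by a single tested gene. H1-2 (ENSG00000187837, chr6:26055787-26056428), a linker histone that compacts chromatin, had 669 and 604 counts in ICAM1-high against 418 and 400 in ICAM1-low. Its level was 34.4 ± 2.13 against 26.4 ± 0.463 CPM (SD, n = 2 each), without overlap, and it rose by 0.38 (SE 0.0867, adjusted p = 1.13e-04). H1-3 and H1-4 were below the filter. H1-3 had 2 and 5 counts in ICAM1-high against 6 and 17 in ICAM1-low, and H1-4 had 5 and 11 against 4 and 2.

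The H2A genes, whose product pairs with H2B in the nucleosome, were led by a gene with no call. H2AC6 (chr6:26124145-26139116), with the most counts of all 69 members, had 1087 and 1041 counts in ICAM1-high against 848 and 917 in ICAM1-low. Scaled for depth these were 58.3, 56.7, 54.2 and 59.8 CPM, so the subsets overlapped, and its fold change was 0.01 (SE 0.0677, adjusted p = 0.885). By library size alone it was 0.19 (adjusted p = 0.0136), close to the shift of all genes under that scaling. H2AC25 (chr1:228456979-228457873), of the small chromosome 1 cluster, had 223 and 210 counts against 148 and 124 and rose by 0.41 (SE 0.141, adjusted p = 9.07e-03). Its call was lost without ICAM1-low replicate 2 (0.30, adjusted p = 0.148) and with DESeq2 (adjusted p = 0.168).

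H2AC8 (chr6:26216975-26217483) was seen in ICAM1-high only at a low level, with 18 and 16 counts against 0 and 0. Set against 3 counts over the ICAM1-low subset, its level had a ratio of 9.49, which leaves out the counting error of its ICAM1-high counts. The test of all genes gave it an adjusted p = 2.04e-06. H2AC8 had passed the filter through its ICAM1-high counts alone. With 0 counts in ICAM1-low it could be tested only if it was higher in ICAM1-high. H2AC11 had 70 and 110 counts against 65 and 55 and no call (0.33, SE 0.222, adjusted p = 0.201), but ICAM1-high replicate 1 decided this. Without that library H2AC11 was called higher (0.62, adjusted p = 0.0246), and without ICAM1-high replicate 2 its fold change was -0.05. H2AC13, with 17 and 27 against 27 and 14 counts, and H2AC20, with 13 and 11 against 6 and 4, had no call (adjusted p = 0.762 and 0.157).

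Of 12 H2B genes tested, 7 were called higher, or 58.3%, against 30.4% of all genes called higher and 59.7% called in either direction. Of those 7, H2BC8 and H2BC9 were tested only through their ICAM1-high counts. H2BC12 (ENSG00000197903, chr6:27146418-27146798) had 1074 and 1062 counts in ICAM1-high against 493 and 485 in ICAM1-low. Its level was 57.7 ± 0.144 and 31.6 ± 0.0640 CPM, and both SDs are under the counting error of such counts. H2BC12 rose by 0.87 (SE 0.0746, adjusted p = 1.29e-16). Of the 50-base stretches in its model, 74.1% also occur in another member or histone pseudogene, mostly in the chromosome 21 copy H2BC12L, so the split of reads between them is uncertain. H2BC12L itself was given 0 and 3 counts in ICAM1-high against 0 and 0 in ICAM1-low.

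H2BC21 and H2BC11 showed the same direction at lower levels. H2BC21 (chr1:149884459-149886652), on chromosome 1, had 349 and 279 counts against 154 and 127, without overlap, and rose by 0.90 (SE 0.132, adjusted p = 1.48e-08). H2BC11 (chr6:27125897-27132750) had 111 and 114 counts against 47 and 39 and rose by 1.13 (SE 0.217, adjusted p = 7.16e-06). Both kept their call in all 11 alternatives run for them. H2BC26, with 35 and 27 counts against 14 and 14, was called at the edge of the threshold (0.88, SE 0.388, adjusted p = 0.0437). That call was lost when any 1 library was left out, with adjusted p = 0.292 and 0.0667 without ICAM1-high replicates 1 and 2 and 0.154 and 0.141 without ICAM1-low replicates 1 and 2. It was also lost with no filter (0.0819), DESeq2 (0.312) and limma-voom (0.0583), and 4 of 11 alternatives kept it.

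The larger H2B changes were in genes with few counts. H2BC4 (chr6:26114873-26123926) had 81 and 58 counts in ICAM1-high against 13 and 13 in ICAM1-low. Its level was 3.75 ± 0.840 against 0.840 ± 0.0114 CPM, the second SD being under counting error, and it rose by 2.15 (SE 0.325, adjusted p = 3.33e-08). H2BC8 (chr6:26215159-26216692) had 18 and 25 counts against 0 and 1, a ratio of 36.0 with a 95% interval, for counting error only, of 6.12 to 1454 (adjusted p = 1.30e-06). H2BC9 (chr6:26251651-26253710) had 14 and 18 counts against 2 and 3 and rose by 2.37 (SE 0.667, adjusted p = 1.63e-03). Without ICAM1-high replicate 2 the adjusted p of H2BC9 was 0.06, and with DESeq2 it was 0.0767. H2BC4 had passed the filter through both subsets.

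The other 5 H2B genes tested had no call. H2BC5, with 295 and 331 counts against 250 and 245, was the most abundant of them and lay at 15.83, 18.02, 15.99 and 15.97 CPM (0.08, SE 0.113, adjusted p = 0.551). H2BC6 (35 and 38 against 33 and 31 counts), H2BC15 (44 and 43 against 35 and 39), H2BC17 (10 and 18 against 10 and 9) and H2BC18 (60 and 85 against 61 and 37) overlapped between subsets. Their fold changes ran from -0.07 in H2BC6 to 0.31 in H2BC18. H2BC18 overlaps FCGR1A and H2BC15 overlaps H2AC16 and H2AC15 in the annotation, so their counts may include reads of those genes.

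**Figure D3:**
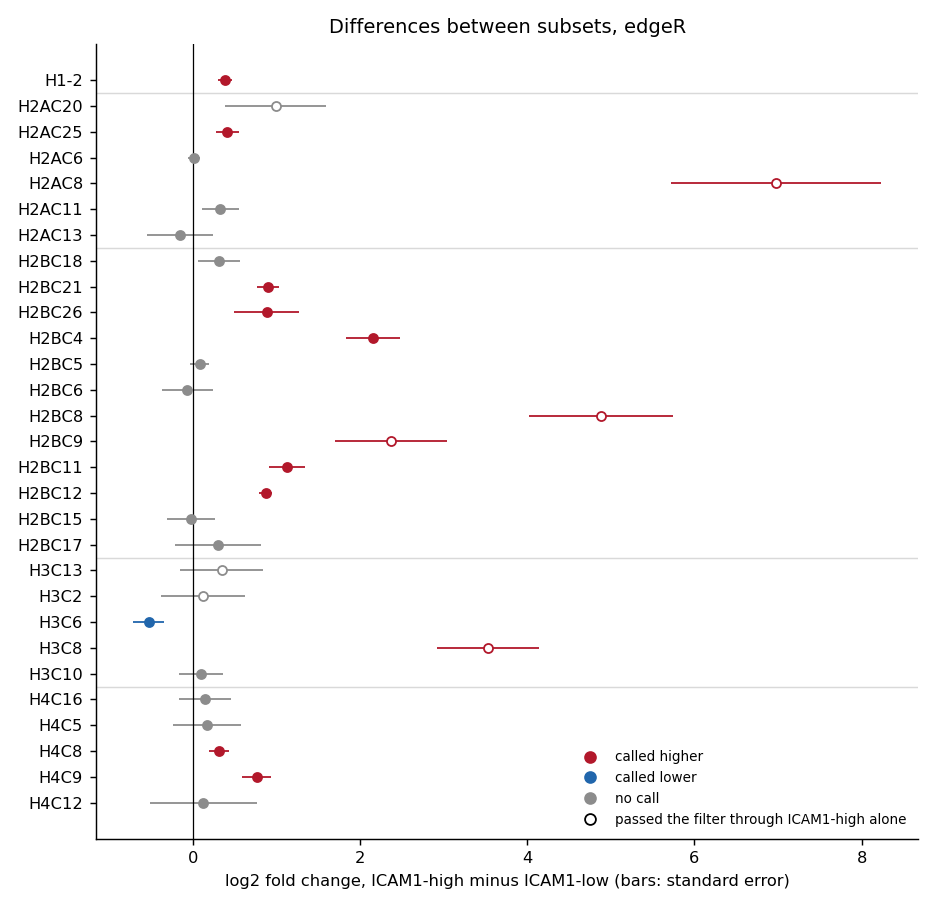
Fold change of each histone gene tested, as the log2 of ICAM1-high over ICAM1-low, with bars of 1 standard error from edgeR. Red marks genes called higher, blue lower and grey no call, and open symbols are genes abundant enough for the filter in ICAM1-high only. H2AC8, at 0 counts in ICAM1-low, is drawn at a fitted value of 6.98 that depends on the fit's prior count, and H3C6 is the lone blue point.

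H3 genes moved in both directions. H3C6 (chr6:26224199-26227473), the only member called lower, had 95 and 91 counts in ICAM1-high against 106 and 119 in ICAM1-low. Its level was 5.03 ± 0.1004 against 7.27 ± 0.692 CPM without overlap, and it fell by 0.53 (SE 0.183, adjusted p = 9.82e-03). The call was lost without ICAM1-low replicate 2 (adjusted p = 0.0895), by library size alone (adjusted p = 0.0860) and with DESeq2 (adjusted p = 0.141). H3C8 (chr6:26269405-26271815) went the other way, with 24 and 34 counts against 1 and 3, and rose by 3.53 (SE 0.612, adjusted p = 8.85e-07), having passed the filter through ICAM1-high alone. H3C10 (46 and 64 against 41 and 45 counts), H3C2 (12 and 14 against 11 and 9) and H3C13 (15 and 17 against 5 and 16) had no call, with adjusted p from 0.570 to 0.855.

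Among H4 genes, whose product forms the tetramer with H3, H4C9 and H4C8 were called. H4C9 (chr6:27138588-27139881) had 187 and 160 counts against 102 and 69, at 9.37 ± 0.934 and 5.51 ± 1.43 CPM, and rose by 0.76 (SE 0.173, adjusted p = 1.03e-04). H4C8 (chr6:26277609-26285638) had 302 and 290 counts against 219 and 181, at 16 ± 0.291 and 12.9 ± 1.56 CPM, and rose by 0.31 (SE 0.120, adjusted p = 0.0228). The subsets did not overlap for either gene. The H4C8 call did not hold on leaving out either of 2 libraries, with adjusted p = 0.0782 for ICAM1-high replicate 1 and 0.327 for ICAM1-low replicate 2, nor with no filter (adjusted p = 0.0545) or with DESeq2 (adjusted p = 0.246). H4C16 on chromosome 12 (39 and 35 against 30 and 26 counts), H4C5 (24 and 19 against 16 and 16) and H4C12 (11 and 6 against 3 and 10) had no call. All of the 50-base stretches in the H4C12 model also occur in other histone genes, so its counts cannot be assigned to it with certainty.

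Per length of the annotated exons the order of levels changed. H2BC12 stood highest at 152 CPM per 1000 bases in ICAM1-high and 82.9 in ICAM1-low, followed by H1-2 at 53.6 and 41.1 and H2AC6 at 34.5 and 34.2. H2BC5 followed at 19.4 and 18.3. The models of H2BC12 and H1-2 hold coding bases only, 381 and 642, while those of H2AC6 and H2BC5 include long untranslated stretches, so this order depends on the annotation. The length cancels in the difference between subsets within 1 gene.

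The divergent pairs showed whether genes that share a region moved alike. H2BC4 rose by 2.15 while its partner H2AC6 had a fold change of 0.01. The level of H2BC4 relative to H2AC6, lengths not divided out, was 0.0745 and 0.0557 in ICAM1-high and 0.0153 and 0.0142 in ICAM1-low, so the ratio itself did not overlap between subsets. For H2BC11 relative to H2AC11 the values were 1.59 and 1.04 against 0.723 and 0.709, also without overlap. In both pairs the H2B gene was higher relative to its H2A partner in ICAM1-high.

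The other pairs with a tested gene varied. H2BC8 and H2AC8, at 43 against 1 and 34 against 0 counts over the 2 libraries of each subset, had nearly all of their counts in ICAM1-high. H2BC26 relative to H2AC25 lay at 0.157 and 0.129 against 0.0946 and 0.113, without overlap. H2BC21 relative to H2AC20 lay at 26.9 and 25.4 against 25.7 and 31.7, which overlap. H2BC12 faced H2AC12, which had 5 counts over all 4 libraries. H2AC13, with no call, faced H2BC13, which was below the filter with 8 and 8 counts against 4 and 2. H2BC17, also with no call, faced H2AC17 with 0 counts and H3C12 with 11 counts in all. Each ratio has 2 values a subset, for which p = 0.333 is the smallest an exact two-sided permutation test allows.

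Members differed in how far their annotated models reach. Models of 32 members hold coding bases only, and of those 7 were tested and 10 had 0 counts in every library. Of the 37 with untranslated bases, 22 were tested and 2 had 0 counts everywhere. In 22 members the model runs at least 100 bases past the stem-loop, as in H2BC21 and H2AC6. Of those, 17 were tested, and 9 were called higher and 1 lower, against 30.4% and 29.4% of all genes. They held 52.4% of the summed level in ICAM1-high and 57.2% in ICAM1-low. The 13 members with a spliced transcript, among them H2AC6, H2BC5 and H4C8, summed to 116.3 ± 0.527 CPM in ICAM1-high and 107.6 ± 0.503 in ICAM1-low. The counts do not tell a tailed or extended transcript from one that ends at the stem-loop.

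The 40 members below the filter added little and showed no direction as a sum. Of these, 12 had 0 counts, 23 had 1 to 19 and 5 had 20 or more over the 4 libraries, with 48 the highest. A library with 0 counts allows up to 3 counts, or 0.161 to 0.196 CPM, by counting error alone. Together they had 156 counts against 141, at 4.22 ± 0.885 and 4.55 ± 0.532 CPM. The 5 with 20 or more counts were H1-3 and H1-4, given above, H2BC7 (11 and 10 against 5 and 5 counts), H2BC13 (8 and 8 against 4 and 2) and H4C15 (5 and 9 against 28 and 6). The higher H4C15 count came from ICAM1-low replicate 1 alone, and 97.2% of the 50-base stretches of H4C15 are shared with other histone genes, mostly its copy H4C14. When all genes down to 1 count were tested, 57 of 69 members had a value. Of these, 11 were called higher and 3 lower, the latter being H3C6, H1-3 and H4C15. Among all 30697 genes tested that way, 4746 were called higher and 4853 lower.

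On chromosome 6 the members span 2168 kb, from 25726132 to 27893843, in 3 main blocks. The 4 members called higher that had passed the filter through ICAM1-high alone, H2BC8, H2AC8, H2BC9 and H3C8, lay 489.8, 491.1, 526.5 and 544.5 kb from the first member. H3C6, called lower, lay among them at 499.7 kb, and H4C5, with no call, just before them at 479.2 kb. Also among them, and not tested, were H4C6, H4C7 and H3C7, with 0 counts in every library. H1-3, not tested either, lay there with 2 and 5 counts in ICAM1-high against 6 and 17 in ICAM1-low. In the block from 1403 kb on, H2BC11, H4C9 and H2BC12 were called higher and H2AC11 had no call. In the last block, from 2082 kb on, 5 members were tested, with adjusted p from 0.636 to 0.951. Those 5 were H2AC13, H3C10, H4C12, H2BC15 and H2BC17, whose fold changes ran from -0.15 to 0.30. Many members near 0 in ICAM1-low in the other blocks were near 0 in ICAM1-high too and were not tested, among them H2AC12 with 5 counts in all and H2BC14 and H4C11 with 1 each. These positions were singled out after the values were seen.

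**Figure D4:**
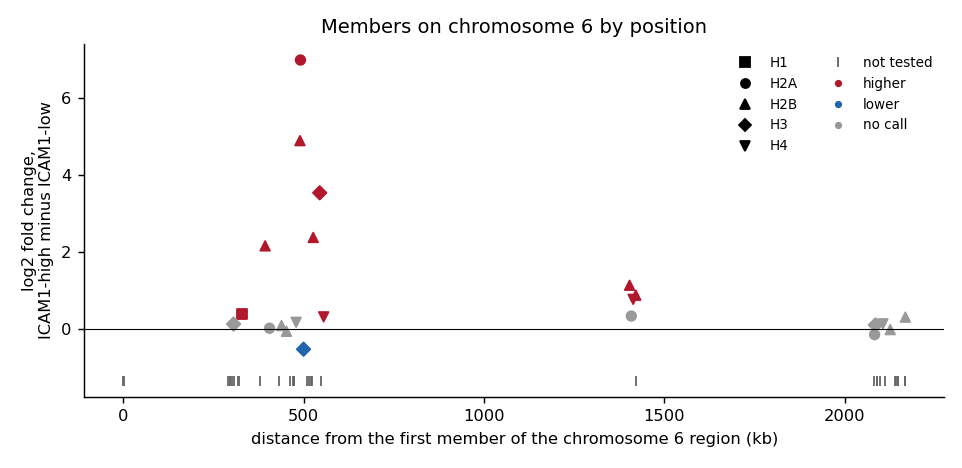
Fold change of the 22 tested members on chromosome 6 against distance in kb from the first member of the region, with shapes for the histone types and ticks for members not tested. Red marks members called higher, blue lower and grey no call. The 4 points above 2.3 fall between 489.8 and 544.5 kb, and the last block from 2082 kb on holds grey points alone.

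Of 20 other protein-coding genes inside this region 15 were tested, and 5 were called higher and 5 lower, 33.3% each and near the 30.4% and 29.4% of all genes, with a median fold change of 0.11. BTN3A3, BTN3A2 and BTN3A1, butyrophilins that gamma delta T cells recognise, rose by 2.37 (SE 0.188, adjusted p = 3.86e-18), 1.66 (SE 0.120, adjusted p = 6.62e-20) and 1.60 (SE 0.136, adjusted p = 9.20e-17). ABT1, a nuclear protein linked to basal transcription, rose by 0.85. SLC17A3, an organic anion transporter, fell by 1.08. Without ICAM1-low replicate 1, 7 of the other genes were called higher.

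Genes that make and process histone messages were mixed. Of 39 listed, all tested, 14 were called higher and 10 lower, with a median of 0.06, near the shares of all genes. SLBP, which binds the stem-loop shown above, had 674 and 693 counts in ICAM1-high against 393 and 398 in ICAM1-low, and rose by 0.53 (SE 0.0855, adjusted p = 1.54e-07). CDK2, the kinase that with cyclin E activates histone transcription through NPAT, had 1218 and 1225 counts against 571 and 565 and rose by 0.85 (SE 0.0707, adjusted p = 3.87e-17). NPAT itself, with 418 and 365 against 327 and 308 counts, had no call (0.05, SE 0.102, adjusted p = 0.725). CASP8AP2, a partner in 3′ end processing, had none either, with 491 and 468 against 443 and 356 counts (0.01, SE 0.0950, adjusted p = 0.955). ERI1, an exonuclease that trims histone messages, fell by 0.70 (SE 0.0635, adjusted p = 1.39e-15). SNRPD3 and SNRPB, Sm proteins of the U7 particle and of splicing particles, went apart, the first rising by 0.77 and the second falling by 0.48. SRRT, a cap-binding partner, rose by 0.56.

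Histone chaperones, which carry histones to and from DNA, had 16 of 28 called higher, or 57.1%, and 5 lower, or 17.9%, with a median of 0.17. Among all genes the shares were 30.4% and 29.4%. CHAF1A, the large subunit of the factor that deposits H3 and H4 at replication forks, had 71.0 and 77.3 CPM against 25.7 and 24.8 and rose by 1.55 (SE 0.0754, adjusted p = 8.66e-29). TONSL, a reader of new H4, rose by 1.54, ASF1B, an H3-H4 carrier, by 0.97, and CABIN1, of the H3.3 chaperone complex, by 0.64. NAP1L1, an H2A-H2B chaperone, fell by 0.47 (SE 0.0395, adjusted p = 4.91e-17). Without ICAM1-low replicate 2, 3 of the chaperones were called lower.

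Replacement and variant histones went mostly the other way from the replication-dependent genes. Of 22 listed, 20 were matched to the table and 12 tested, and 2 were called higher, or 16.7%, and 8 lower, or 66.7%, with a median of -0.43, against 30.4% and 29.4% of all genes. Their summed level was 1753 and 1763 CPM in ICAM1-high and 2923 and 2839 CPM in ICAM1-low, without overlap. H3-3B, one of the genes that encode H3.3, had 9742 and 9476 counts against 15865 and 15182 and fell by 0.95 (SE 0.0385, adjusted p = 3.99e-33), MACROH2A2 by 0.90 and H2AJ by 0.49. H3-3A, the other H3.3 gene, which is named here after its values were seen, had 3164 and 3051 counts against 2219 and 2040 and rose by 0.29 (adjusted p = 7.95e-07). H2AX, the variant phosphorylated at DNA breaks, rose by 0.88 (SE 0.0667, adjusted p = 6.07e-19), with 79.5 and 86.9 CPM against 47.0 and 43.5. The summed counts of replacement histones were several times those of the replication-dependent genes in every library. The library method may capture messages with and without a poly(A) tail unequally. The models of 32 replication-dependent members also hold coding bases only, so these sums do not compare amounts of RNA.

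Genes of DNA synthesis were higher in most cases: 33 of 40 were called higher, or 82.5%, and 1 lower, or 2.5%, with a median of 0.73, against 30.4% and 29.4% of all genes. The 5 with the smallest adjusted p were subunits of the MCM helicase that unwinds DNA at replication origins. MCM5 rose by 1.63 (SE 0.0641), from 38.3 and 36.4 CPM in ICAM1-low to 113.9 and 117.8 in ICAM1-high. MCM2, MCM6, MCM4 and MCM7 rose by 1.33, 1.23, 1.17 and 0.87. Without ICAM1-high replicate 2, 2 genes of this list were called lower. Of 30 genes of G2 and mitosis, 16 were called higher, or 53.3%, and 7 lower, or 23.3%, with a median of 0.18, against the same shares of all genes. KIF20A, a mitotic kinesin, rose by 1.78, INCENP, of the chromosomal passenger complex, by 0.92, and CCNB1, a mitotic cyclin, by 0.73. CDC25B, a phosphatase that starts mitosis, fell by 0.70 and ECT2, which drives cytokinesis, by 0.50.

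**Figure D5:**
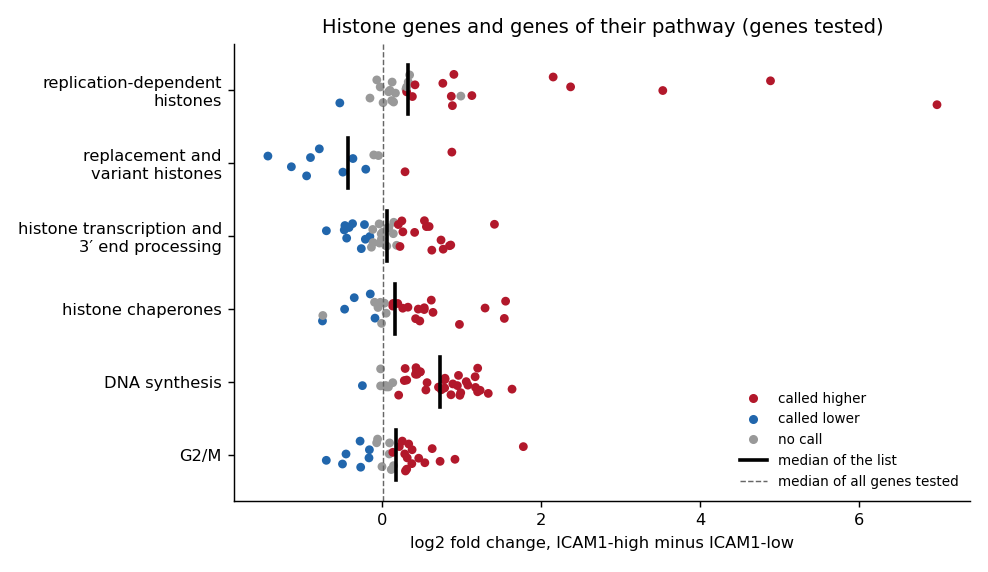
Fold change of every tested gene in the replication-dependent histone set and in 5 related lists, as the log2 of ICAM1-high over ICAM1-low. Red marks genes called higher, blue lower and grey no call, black bars are list medians and the dashed line is the median of all genes tested. The medians run from -0.43 for replacement histones to 0.73 for DNA synthesis, with 0.33 for the replication-dependent genes.

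Some markers of other cell types differed between the subsets as well, though many were below the filter. Among all genes tested, 30.4% were called higher and 29.4% lower, to be set beside the counts of markers called. Of 14 fibroblast markers 8 were tested, 4 of them through their ICAM1-high counts alone, and 6 were called higher, and their summed level was 80.6 and 92.2 CPM in ICAM1-high and 48.5 and 52.1 in ICAM1-low. The list was uneven: COL1A1 rose by 2.81, while POSTN was at 0 in every library, COL3A1 had 0 and 0 counts against 1 and 1, COL1A2 0 and 0 against 0 and 1, DCN 1 and 0 against 2 and 0, and PDGFRA had no call (-0.03). Of 14 endothelial markers 6 were tested, 2 of them through their ICAM1-high counts alone, and 8 were below the filter. Of those tested, 4 were higher and 1 lower. The sums were 52.3 and 57.0 against 37.1 and 40.4 CPM. TIE1, KDR, TEK, VWF, PLVAP and ERG were at 0 in ICAM1-low, and at most 2 of them had enough counts in ICAM1-high to be tested. Of 14 leukocyte markers 2 were tested, 1 was higher and 1 lower, the sums were 26.1 and 24.9 against 18.6 and 19.6 CPM, and PTPRC, CD2, CD3D, CD3E and MS4A1 were at 0 in every library. Of 6 epithelial markers 4 were higher and 2 lower, with sums of 5050 and 5212 against 3686 and 3746 CPM. The part of these markers in the histone differences was not tested.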

How the data were processed

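The 4 libraries, 2 per subset, were analysed from the raw read counts per gene that the authors deposited as whole numbers in a single table. The submitters' processing notes name GRCh38 as the build and FastQC 0.10.1. How reads were aligned and counted, and whether by strand, is not given in the sources used here. Gene positions came from GENCODE 29 and symbols from the gene name table, which matched 58207 of 58735 identifiers, and 4 members were matched by an older name. A further 13 histone pseudogenes were left out. Genes were tested with edgeR 4.0.16 in R 4.3.3, by the robust quasi-likelihood test with TMM scaling (factors 1.059, 1.065, 0.9395 and 0.9439) and a filter with a minimum count of 10 and total of 15. Adjusted p-values are from this test unless another tool is named. The test was also run on counts simulated with a common dispersion of 0.00133 and few changed genes. That setting is simpler than these data, so it is no check of the calls here. The labels do not state that replicate numbers pair the libraries. Deviations of the replicate 1 libraries from their subset means had a correlation of 0.0417 over 16250 genes. With 2 libraries a subset, this cannot show whether they were paired. The members and the lists were chosen with earlier results of these data known. Named are all tested members, others with 20 or more counts, label and pathway checks, and the 5 genes with the smallest adjusted p of each list and of the region. A gene that this rule names is not reported here. Alternatives changed the scaling, filter, tool, block, threshold or library set.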

Additional observations from a re-analysis of the deposited data

How the results depend on the processing

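Of the 14 members called, 9 (H1-2, H2AC8, H2BC4, H2BC8, H2BC11, H2BC12, H2BC21, H3C8 and H4C9) kept their call in every alternative that gave them a value. The number called higher ran from 9 (DESeq2 1.42.0, or a mean of at least 1 CPM) to 16 (library size only), with 12 by limma-voom (limma 3.58.1) and 10 to 12 with 1 library left out. With the replicate number as a block, 13 members were called higher and 1 lower, and no call changed. A library left alone in its subset was taken to vary as the libraries of the other subset did. Members called lower numbered 0 by library size only, 3 with no filter, 0 with DESeq2 and 1 to 3 with 1 library left out. By library size only, genes called lower numbered 3124 in all, 6 of histone processing, 3 of the chaperones, 0 of DNA synthesis and 3 of G2 and mitosis. Left-out libraries gave 3 to 6 chaperones and 1 to 2 DNA synthesis genes lower. The members' median log2 fold change was 0.50 by library size only, 0.29 with no filter and 0.32 to 0.43 with 1 library left out. By library size only the summed ratios were 1.48 for all members, 1.44 for H1, 1.22 for H2A, 1.85 for H2B and 1.07 for H3, the last on the other side of 1, as was H3 at the upper end of its range of 0.879 to 1.03 with 1 library left out.

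The log2 fold changes that reversed were of genes with no call. By library size only they were 0.021 for H2AC13, 0.11 for H2BC6 and 0.15 for H2BC15, with no filter -0.0085 for H2AC6 and -0.014 for CASP8AP2, and with DESeq2 -0.0023 for CASP8AP2. With 1 library left out, the values ran from -0.065 to 0.074 for H2AC6, -0.047 to 0.621 for H2AC11, -0.545 to 0.371 for H2AC13, -0.0030 to 0.690 for H2BC18, -0.017 to 0.1665 for H2BC5, -0.121 to 0.061 for H2BC15, -0.194 to 0.663 for H2BC17, -0.277 to 1.41 for H3C13, -0.011 to 0.249 for H3C2, -0.173 to 0.320 for H3C10, -0.0049 to 0.3125 for H4C5, -0.508 to 1.22 for H4C12, -0.052 to 0.1265 for NPAT and -0.139 to 0.150 for CASP8AP2. The cause was not tested. Depth limits the members unevenly, since 40 of 69 were below the filter, and the SE of those tested ran from 0.0677 in H2AC6 to 1.26 in H2AC8.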

Other observations

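Of 13 histone pseudogenes left out of the members, 2 were tested and had no call. H2BC20P had 188 and 160 counts in ICAM1-high and 133 and 138 in ICAM1-low (log2 fold change 0.10, SE 0.149, edgeR adjusted p = 0.572). H2BC19P had 81 and 57 counts against 57 and 54 (0.06, SE 0.236, adjusted p = 0.854). The other 11 were below the filter.

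Shared sequence was limited in most tested members. The median tested member had 0.591% of its 50-base stretches in common with another member or histone pseudogene. Among the members called, H2BC12 shared the most, with 74.1%, followed by H2BC21 with 8.11% and H2BC4 with 5.99%. Among those below the filter, 7 of 40 shared over 90%, namely H2AC15, H2AC18, H2AC19, H3C14, H3C15, H4C14 and H4C15. How the authors' counting treated reads that match several copies is not given in the sources used here.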
